A study of Mus musculus with 9 samples.

Results

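Fos, Fosb, Fosl1, Fosl2, Jun, Junb, Jund, Atf3, Egr1 and Egr2 encode transcription factors of the AP-1 and Egr families, and many of them are transcribed within minutes of a stimulus, cell stress included. The 10 genes were listed by name and read in every library of the deposited table of normalized counts, where they are 10 of 26214 genes. All 10 were found, and all 10 are among the 13601 genes tested, those that average 10 or more over the 8 libraries compared.

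The libraries are bulk RNA-seq of mesenchymal stromal cells isolated from male C57Bl/6 mice (C57Bl/6J in the methods) of 8 to 12 weeks, 1 day after an injection into the quadriceps. Adipose stromal cells (ASC, n=3) came from subcutaneous adipose tissue of mice injected with NaCl. Fibro-adipogenic progenitors (FAP, n=2) came from the quadriceps of mice injected with NaCl, and injured FAP (n=3) from quadriceps injected with glycerol, which damages muscle fibres. A single library of CD31+CD45+ cells from glycerol-injected quadriceps (n=1) serves for description only. ASC, FAP and injured FAP were sorted with magnetic beads as CD31-/CD45-/Sca-1+ cells, and the methods speak of triplicates made from a pool of cells of 3 animals, which leaves unsaid whether the libraries of a group come from 1 pool. Of FAP, the reference of 2 comparisons, only 2 libraries are in the series, without a stated reason.

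Isolation differed between the tissues. Adipose tissue was digested with collagenase NB4 and DNase, whereas the quadriceps was digested with collagenase B and dispase II and also passed through a syringe. Both digestions ran at the same temperature and for the same total time. Only for the adipose fraction do the methods give a lysis of red blood cells, and the digestion media differed (αMEM and HBSS). A difference between ASC and FAP in these genes therefore cannot be told apart from the isolation, the tissue and the cell type. FAP and injured FAP share the stated digestion, and how long each sort took is not given. Reads on genes numbered 27349184 to 27481573 in ASC, 24052508 and 24164447 in FAP, 26698572 to 27028114 in injured FAP and 13091077 in the CD31+CD45+ library.

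AP-1 is a dimer of basic leucine zipper proteins: a Fos protein pairs with a Jun protein, Jun proteins also pair with each other, and Atf3 joins through the same zipper. Egr1 and Egr2 are zinc finger proteins that bind GC-rich sites. Enzymatic digestion is known to switch on many of these genes before the cells are lysed, so that a level in sorted cells may come from the tissue or from the isolation. No library of undigested tissue is in the series, and the part that isolation plays in any level was not tested.

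Markers were read first as a check of the labels. Pdgfra, a receptor of mesenchymal progenitors, has normalized counts of 10837, 15083 and 13043 in ASC, 17754 and 17756.5 in FAP and 23649, 25268 and 23236 in injured FAP, and 119 in the CD31+CD45+ library. Ly6a, the gene of Sca-1, averages 44382 in ASC, 13682 in FAP and 23491 in injured FAP. Pecam1, the gene of CD31, is at 269 or below in the 8 stromal libraries and at 45323 in the CD31+CD45+ library, whereas Ptprc, the gene of CD45, is at 55.8 or below and at 797. The stromal labels thus fit their markers. In the CD31+CD45+ library endothelial markers lead, with others beside them: its summed endothelial markers reach 329753, its mural markers 80739 (Rgs5 leading at 40800.3), its leukocyte markers 30349.5 and its fibre markers 2925.

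Each of the 3 comparisons is a difference of group means of log2(normalized count + 1), and a gene is called where its adjusted p, over the 13601 genes, is under 0.05 and its log2 fold change lies beyond 0.58 in either direction. ASC against FAP and injured FAP against FAP share the 2 FAP libraries, and the third comparison, injured FAP against ASC, uses no new library, so the 3 are not separate evidence. Nothing in the labels says that the replicates are independent experiments, so the p-values measure the spread between these samples. In bulk RNA, fewer cells with a transcript cannot be told apart from less of it per cell.

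In ASC against FAP 7 members were called, 5 higher in ASC (Fosb, Fosl1, Fosl2, Junb, Atf3) and 2 lower (Jun, Egr2). Of all tested genes 47.2% were called in that comparison, 23.4% higher and 23.8% lower. In injured FAP against FAP 7 members were called, 1 higher after glycerol (Fosl1) and 6 lower (Fos, Jun, Junb, Jund, Atf3, Egr1), beside 52.6% of all genes, 24.9% higher and 27.7% lower. In injured FAP against ASC 9 members were called, none higher and 9 lower, every member but Egr2, beside 50.8% of all genes, 25% higher and 25.8% lower. About every other gene was called in each comparison, so a call by itself carries little, and the direction and size of the changes are described gene by gene below.

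**Figure D1:**
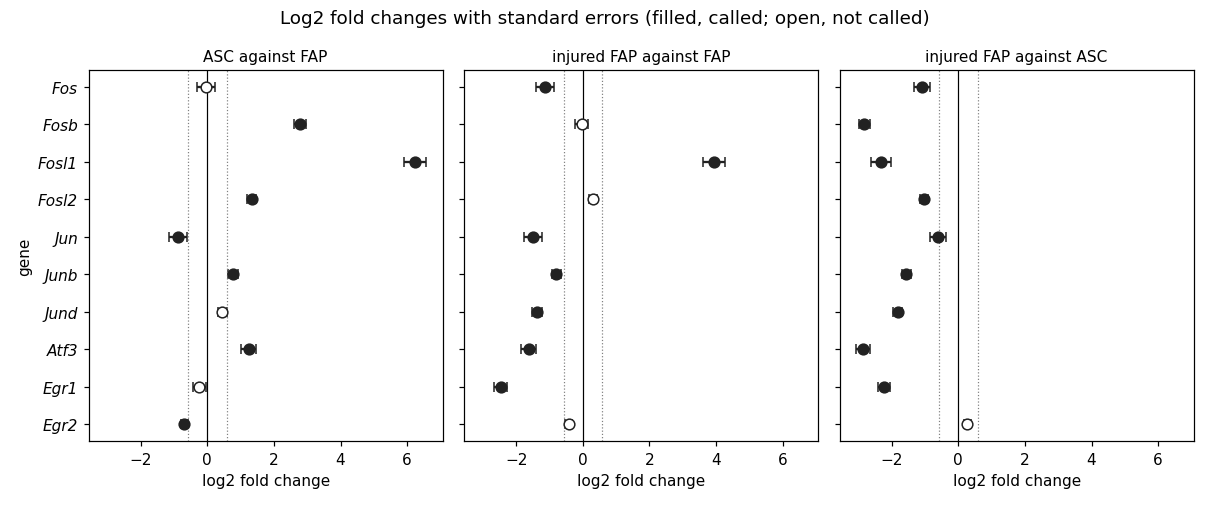
Log2 fold changes of the 10 genes in the 3 comparisons, with bars of the standard error, filled where called. The vertical axis lists the genes. Egr1 falls by 2.47 in injured FAP against FAP, and Fosl1 rises by 3.94.

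The median log2 fold change of the members in ASC against FAP is 0.61, against 0.00 over all tested genes. In injured FAP against FAP it is -0.96 beside -0.05, and in injured FAP against ASC it is -1.69 beside 0.02. Non-overlapping values between groups are common here: 72.2% of all tested genes have them in ASC against FAP, 84.0% in injured FAP against FAP and 71.8% in injured FAP against ASC. Among the members, 9 of 10 do in each comparison.

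Scaling matters for these medians. The deposited values sum to 36203100, 30975900 and 34399900 in ASC but to between 20614700 and 22871400 in the muscle stromal libraries, so setting every library to a common total shifts the median of all tested genes to -0.56 in ASC against FAP, 0.08 in injured FAP against FAP and 0.71 in injured FAP against ASC. A common 75th percentile shifts it to -0.20, -0.15 and 0.13. Such a factor per library moves all genes alike. The members' median relative to that of all tested genes thus stays at 0.60, -0.91 and -1.71 both as deposited and with the common total. Every sign change under the common total given here is this shift of all genes, and member calls gained or lost there go with it. The share of calls that are higher moves as well: in ASC against FAP it is 49.6% as deposited, 37.2% with a common 75th percentile and 20.1% with a common total, and in injured FAP against ASC 49.3%, 56.1% and 81.3%. Under the common total the members' medians are 0.04, -0.83 and -0.99, and under quantile normalization -0.12, -0.60 and -0.66. The members' median is thus below 0 in both comparisons of injured FAP under every scaling, although Fosl1 and Fosl2 are higher against FAP and Egr2 against ASC under each of them. In ASC against FAP the median is 0.61 as deposited, 0.40 with a common 75th percentile, 0.04 with a common total and -0.12, in the other direction, with quantile normalization. The member calls there are 5 higher and 2 lower as deposited, and 4 higher and 2 lower with a common 75th percentile. They are 4 higher and 3 lower with a common total, and 2 higher and 3 lower with quantile normalization.

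**Figure D2:**
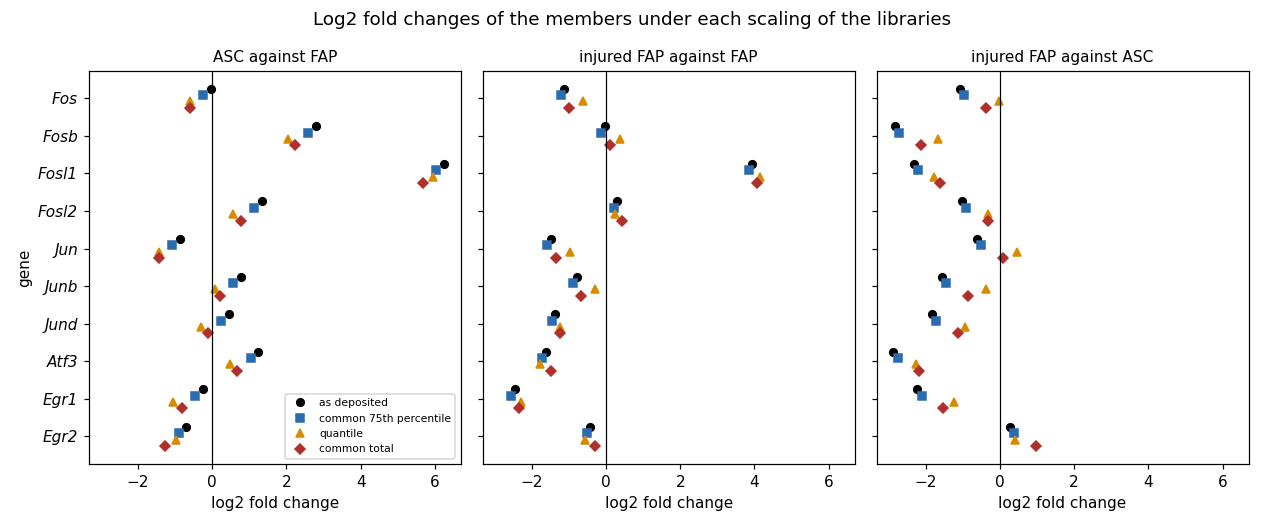
Log2 fold change of each of the 10 genes in the 3 comparisons under 4 scalings of the values. Jun in injured FAP against ASC is -0.62 as deposited and 0.08 with a common total.

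Beside any scaling, the members' share of all values in a library can be read directly. They take up 1.85%, 2.40% and 2.45% of the ASC libraries, a median of 2.10% in FAP, and 1.01%, 1.01% and 0.856% of the injured FAP libraries. Both FAP libraries lie within the ASC range, and every injured FAP library lies below all of them.

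Fos encodes the founding member of its family and is the most labile. Its normalized counts are 44525, 85172 and 85647 in ASC, 77953 and 64043 in FAP, and 34384, 36252 and 27269 in injured FAP. ASC and FAP overlap, with ASC replicate 1 far below the other ASC libraries, and all injured FAP libraries lie below every other stromal library. Means are 71781 ± 23606 (SD), 70998 ± 9836 and 32635 ± 4740.3. The log2 fold change is -0.04 (SE 0.27, adjusted p 0.909) in ASC against FAP and -1.13 (SE 0.27, adjusted p 0.00417) in injured FAP against FAP, a 2.18-fold lower level. ASC against FAP is at -0.60 with quantile normalization and -0.61 with the common total, neither called. Relative to the median of all tested genes these are -0.59 and -0.05. Injured FAP against ASC gives -1.09 (SE 0.24, adjusted p 0.00251). These declines hold less well than others: under quantile normalization Fos is no longer called in injured FAP against FAP (-0.63) or against ASC (-0.03). Against ASC it is also not called under the common total (-0.39), which moves all genes alike. Relative to the median of all tested genes that value is -1.11 as deposited and -1.10 with the common total.

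Fosb, a Fos relative that also yields a truncated protein, separates adipose from muscle. It stands at 276176, 239474 and 307554 in ASC, 40712 and 38509 in FAP and 44391, 41928 and 30831 in injured FAP. All ASC libraries are high and all muscle libraries low, with FAP and injured FAP overlapping. Fosb is the 9th most abundant gene by value in each ASC library and takes up 0.763%, 0.773% and 0.894% of their values, against 0.178% and 0.169% in FAP. The log2 fold change in ASC against FAP is 2.79 (SE 0.19, adjusted p 1.28e-06), or 6.89-fold, with 2.05 under quantile normalization. That in injured FAP against ASC is -2.82 (SE 0.17, adjusted p 3.05e-07), with -1.66 under quantile normalization. Injury left no difference that was called: -0.04 (SE 0.19, adjusted p 0.869) in injured FAP against FAP, with 0.39 under quantile normalization and 0.09 under the common total.

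Fosl1 encodes Fra-1, which has no transactivation domain of its own and usually rises later than Fos. It has the widest range of the 10: 28364, 10329 and 13499 in ASC, 246 and 175 in FAP, and 3442, 3066 and 3077 in injured FAP. The 3 groups do not overlap, with ASC on top, injured FAP between and FAP lowest. Log2 fold changes are 6.24 (SE 0.33, adjusted p 2.94e-07), or 75.8-fold, in ASC against FAP and 3.94 (SE 0.33, adjusted p 4.79e-06), or 15.3-fold, in injured FAP against FAP. Against ASC the injured FAP value is -2.31 (SE 0.30, adjusted p 6.61e-05). Fosl1 is the only member that rises with injury and is called.

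The Fosl1 locus, chr19:5447547-5455946 on the plus strand of GRCm38, shares 1163 exon bases with Ccdc85b on the other strand, and the strand setting of the counting is not stated, so part of its low values is uncertain. Ccdc85b itself is at 290, 373 and 272 in ASC, 378 and 396 in FAP and 245, 253 and 270.0 in injured FAP, and is called lower in injured FAP against FAP (-0.59, adjusted p 0.00668), where Fosl1 is higher.

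Fosl2 encodes Fra-2, the other late Fos relative. Its values are 23583, 20638 and 26246 in ASC, 8848 and 9749 in FAP, and 12339, 10604 and 11435 in injured FAP. ASC is highest and FAP lowest, with no overlap between any groups. Its log2 fold change is 1.33 (SE 0.13, adjusted p 1.15e-05) in ASC against FAP, in injured FAP against ASC -1.03 (SE 0.11, adjusted p 2.02e-05), and in injured FAP against FAP 0.30 (SE 0.13, adjusted p 0.0581), which is not called. With quantile normalization the calls are lost in ASC against FAP (0.56) and in injured FAP against ASC (-0.32), and with the common total in the latter (-0.33).

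Promoters of Fos and Fosb are shown because these 2 genes part ways between adipose tissue and muscle while carrying the same kind of site. RefSeq sequences of build GRCm38.p6, 300 bases each and ending 50 bases after the start of transcription, were searched on both strands, and 8 of the 10 members were matched by name; Fosl1 and Egr1 were not. The sequence under the name Jund, chr8:70697489-70697788, ends more than 1 kb before the GENCODE gene, chr8:70698949-70700616, so the lack of motifs in it says little about Jund. Searched motifs are in capitals. The Fos promoter, chr12:85473640-85473939 on the plus strand, has the CRE core TGACG 129 and 66 bases before the start and a TATAAA box 33 bases before it. The Fosb promoter, chr7:19309996-19310295 on the minus strand, has TGACG 60 bases before the start and the Egr site GCGGGGGCG 50 bases before it.

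Fos: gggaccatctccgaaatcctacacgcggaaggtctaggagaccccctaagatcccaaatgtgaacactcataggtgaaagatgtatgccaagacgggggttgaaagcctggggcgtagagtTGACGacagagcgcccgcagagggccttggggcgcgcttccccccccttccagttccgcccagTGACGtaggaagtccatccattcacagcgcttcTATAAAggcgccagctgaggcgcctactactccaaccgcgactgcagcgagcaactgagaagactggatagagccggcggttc

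Fosb: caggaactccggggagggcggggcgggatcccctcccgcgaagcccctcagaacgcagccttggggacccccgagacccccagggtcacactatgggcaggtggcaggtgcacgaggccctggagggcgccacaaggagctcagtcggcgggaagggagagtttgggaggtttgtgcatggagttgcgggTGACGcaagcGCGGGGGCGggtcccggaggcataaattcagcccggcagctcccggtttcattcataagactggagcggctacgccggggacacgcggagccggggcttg

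**Figure D3:**
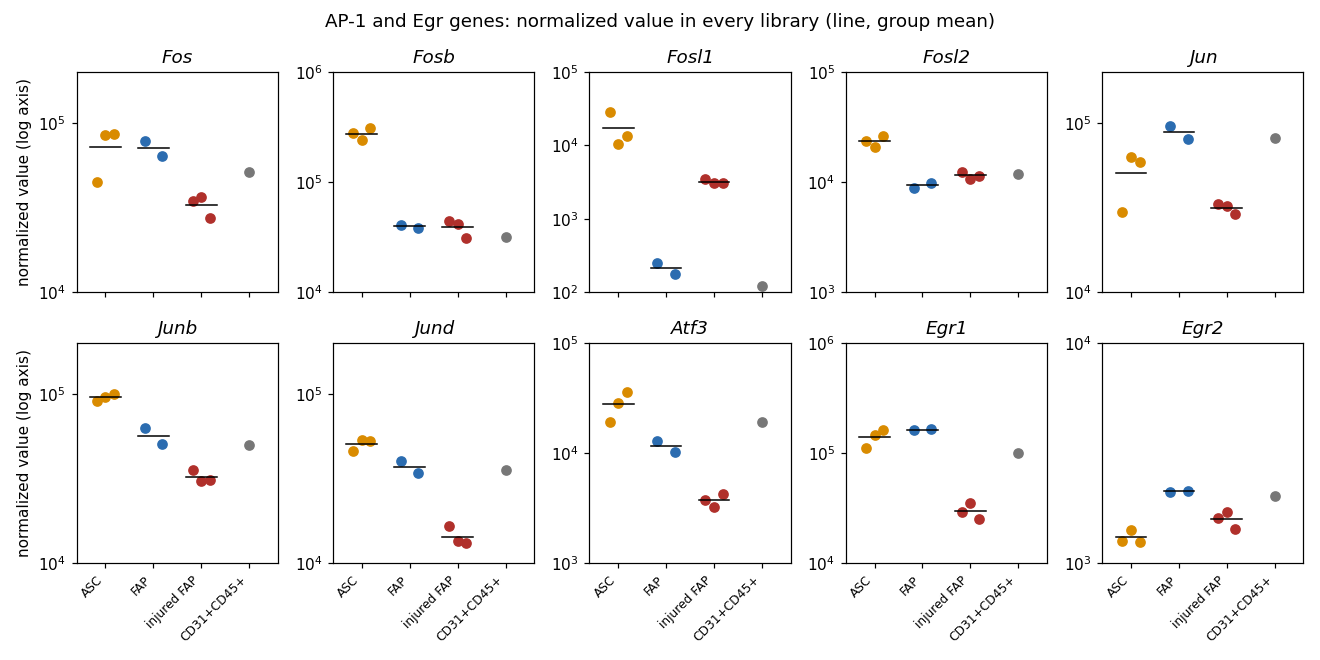
Normalized counts of the 10 genes in each of the 9 libraries on a log scale, 1 point per library, coloured by group. Fosb is at 239474 to 307554 in ASC and at 30831 to 44391 in muscle stromal cells.

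Jun encodes the partner that Fos proteins need in order to bind DNA. Its normalized counts are 29900.1, 63043 and 59023 in ASC, 96154 and 80669 in FAP, and 33256, 32158 and 28846 in injured FAP. FAP is highest without overlap, and ASC replicate 1 falls within the injured FAP range while the other ASC libraries lie above it. The log2 fold change in injured FAP against FAP is -1.49 (SE 0.28, adjusted p 0.00084), a 2.81-fold lower level. ASC against FAP gives -0.87 (SE 0.28, adjusted p 0.019), which rests on single libraries. It becomes -0.53 without ASC replicate 1, and is not called at -0.75 without FAP replicate 1 or -0.999 without FAP replicate 2. With only ASC and FAP in the fit it is not called either (adjusted p 0.0583). The other scalings give larger values, all called: -1.08 with a common 75th percentile and -1.44 with the common total and with quantile normalization. Relative to the median of all tested genes it is -0.88 as deposited, with the common 75th percentile and with the common total, and -1.43 with quantile normalization.

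Jun in injured FAP against ASC has the highest adjusted p of the member calls: -0.62 (SE 0.25, adjusted p 0.047) as deposited, but 0.47 with quantile normalization and 0.08 with the common total, in the other direction. Relative to the median of all tested genes Jun is at -0.64 as deposited and -0.63 with the common total, so that change is the shift of all genes, and with quantile normalization it is at 0.44. The call is also lost with a common 75th percentile (-0.50, adjusted p 0.105), with only the 2 groups compared in the fit (adjusted p 0.0624), with a replicate block (adjusted p 0.0579) and without the filter on low values (adjusted p 0.0789). It is called without ASC replicate 1 (-0.96) and not without ASC replicate 2 (-0.42), ASC replicate 3 (-0.47), or any injured FAP library in turn (-0.66, -0.63 and -0.56; adjusted p 0.08, 0.0895 and 0.135). Without FAP replicate 1 or FAP replicate 2, which enter only through the pooled variance, Jun is at -0.62 with adjusted p 0.0615.

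Junb encodes a Jun relative with weaker transactivation that can oppose Jun. It stands at 91014, 95219.5 and 99639 in ASC, 62330.2 and 50441 in FAP, and 35427, 30535 and 31133 in injured FAP. The order is ASC, FAP, injured FAP with no overlap. Log2 fold changes are 0.76 (SE 0.14, adjusted p 0.00112) in ASC against FAP, -0.80 (SE 0.14, adjusted p 0.000733) in injured FAP against FAP and -1.56 (SE 0.13, adjusted p 2.7e-06) in injured FAP against ASC. Junb loses its call in ASC against FAP under a common 75th percentile (0.55), the common total (0.20) and quantile normalization (0.07), and quantile normalization also removes it in injured FAP against FAP (-0.30) and against ASC (-0.37), where the common total leaves -0.86, still called. Junb shares 173 exon bases with Prdx2 on the other strand, and the strand setting is unknown, so part of its reads is uncertain.

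Jund encodes the Jun protein held to be the most constant and least dependent on a stimulus. Its values are 46096, 53219 and 52531 in ASC, 40065 and 34081 in FAP, and 16459.8, 13426 and 13103 in injured FAP. Again ASC is highest and injured FAP lowest without overlap. Jund shares 877 of its 1668 exon bases with the antisense gene Gm11175 and Jun 232 with Junos, so their reads are uncertain too. The log2 fold change of injured FAP for Jund is -1.37 (SE 0.14, adjusted p 1.73e-05) against FAP and -1.83 (SE 0.13, adjusted p 8.45e-07) against ASC, the latter -0.95 under quantile normalization and -1.13 under the common total, both called. Between ASC and FAP the difference is 0.45 (SE 0.14, adjusted p 0.0192), too small to be called, with -0.30 under quantile normalization and -0.12 under the common total.

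The Junb promoter, chr8:84978699-84978998 on the minus strand of GRCm38.p6, is shown for the site it has in common with Fos and Fosb: a TGACG core, here at -106 from the start. A CCAAT box begins 36 bases before the start, and the TATAAA match begins at the RefSeq start itself, which lies 30 bases before the GENCODE start of Junb.

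Junb: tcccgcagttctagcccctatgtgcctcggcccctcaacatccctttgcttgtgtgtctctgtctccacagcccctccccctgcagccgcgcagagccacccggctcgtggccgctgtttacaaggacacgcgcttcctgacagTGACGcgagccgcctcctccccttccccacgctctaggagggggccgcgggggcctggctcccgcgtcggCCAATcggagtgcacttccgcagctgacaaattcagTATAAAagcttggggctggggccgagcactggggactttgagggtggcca

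Atf3 encodes a stress-induced factor of the CREB family that acts mostly as a repressor. Its normalized counts are 19224, 28621 and 35931 in ASC, 12750.5 and 10249.9 in FAP, and 3710.5, 3219 and 4228 in injured FAP. The 3 groups do not overlap. Differences are 1.24 (SE 0.23, adjusted p 0.000971) in ASC against FAP, -1.63 (SE 0.23, adjusted p 0.000136) in injured FAP against FAP and -2.87 (SE 0.20, adjusted p 9.66e-07), or 7.31-fold lower, in injured FAP against ASC. Quantile normalization takes away the call in ASC against FAP (0.47) and no other Atf3 call, and the common total leaves 0.67 there, still called. Injured FAP against ASC is at -2.27 under quantile normalization and -2.17 under the common total, both called.

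Egr1 encodes the zinc finger factor most often read as a mark of recent stimulation. It has 111363, 145408 and 159995 normalized counts in ASC, 161561 and 163772 in FAP, and 28857, 35053 and 25086 in injured FAP. Injured FAP is far below both other groups, and all ASC libraries are below FAP, replicate 3 narrowly. Means are 138922 ± 24956, 162666 ± 1563 and 29665 ± 5032. The log2 fold change is -2.47 (SE 0.20, adjusted p 3.2e-06), or 5.54-fold lower, in injured FAP against FAP and -2.22 (SE 0.18, adjusted p 1.96e-06) in injured FAP against ASC, the latter -1.24 under quantile normalization and -1.53 under the common total, both called. ASC against FAP gives -0.24 (SE 0.20, adjusted p 0.304), not called, but -1.06 with quantile normalization and -0.81 with the common total, both called. Relative to the median of all tested genes it is -0.25 both as deposited and with the common total, and -1.05 with quantile normalization. By value Egr1 ranks 8th and 9th among all genes in FAP and between 47th and 83rd in injured FAP.

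Egr2, a relative with roles in Schwann cells and lymphocytes, behaves differently. Its values are 1265, 1412 and 1244 in ASC, 2110.0 and 2118 in FAP, and 1598, 1711 and 1433 in injured FAP. FAP is highest, ASC lowest and injured FAP between, without overlap. Its log2 fold change is -0.70 (SE 0.11, adjusted p 0.000309) in ASC against FAP, and the others, -0.42 (SE 0.11, adjusted p 0.00569) in injured FAP against FAP and 0.27 (SE 0.10, adjusted p 0.0281) in injured FAP against ASC, are too small to be called. With the common total Egr2 in injured FAP against ASC is 0.97 and called. Relative to the median of all tested genes it is 0.25 as deposited and 0.26 with the common total, so the gained call is the shift of all genes.

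Of the Egr2 promoters in RefSeq the one at chr10:67537619-67537918 on the plus strand is shown. It was chosen for its CArG box, the site of serum response factor, here 72 bases before the start. Within the sequences searched, Egr2 is the only matched member with such a box. Sites further upstream were not searched, so the lack of a CArG box in Fos and the other matched members holds for these sequences only. Fosl1 and Egr1 had no sequence to search. The table holds 5 Egr2 promoters, some of which overlap. The one shown has its RefSeq start at 67537869, inside the GENCODE gene, which begins at 67535475. It also has TGACG on either strand, at 111 and 55 bases before the start, and a CCAAT box read on the minus strand.

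Egr2: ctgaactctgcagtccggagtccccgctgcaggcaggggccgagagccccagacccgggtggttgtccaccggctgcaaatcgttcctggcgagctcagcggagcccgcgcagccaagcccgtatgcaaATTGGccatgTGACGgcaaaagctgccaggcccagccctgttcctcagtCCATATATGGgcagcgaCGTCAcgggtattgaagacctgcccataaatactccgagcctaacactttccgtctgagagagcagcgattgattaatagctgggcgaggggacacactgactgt

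Over the 8 matched members the CRE core TGACG occurs in 5 (Atf3, Egr2, Fos, Fosb, Junb), beside 23.0% of all 27025 genes with a promoter in RefSeq, a gene counted in both cases where any of its promoters has the site, and the full palindromic CRE, which contains this core, in 0, beside 2.03%. The Egr site, GCGGGGGCG with any base at its 4th position, occurs in 2 (Fosb, Fosl2), beside 6.27%, and the AP-1 site TGANTCA in 0, beside 8.97%. A CArG box occurs in 1 (Egr2), beside 1.81%, TATAAA in 2 (Fos, Junb), beside 15.7%, and CCAAT in 4 (Atf3, Egr2, Jun, Junb), beside 41.1%. Not all of these sequences lie at a GENCODE start. The RefSeq start of Atf3, at 191183333, lies inside the GENCODE gene, which begins at 191218039 on the minus strand. The Egr2 promoters with these motifs start at 67537566 to 67537930, inside a gene that begins at 67535475. A match describes the sequence and says nothing of use in these cells, and sites outside these sequences were not searched.

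Levels of different genes were compared per kb of exon. In ASC the order of group means runs Fosb (43954), Junb (41413), Egr1 (30982), Fos (30519), Jund (30345), Jun (15884), Atf3 (12965), Fosl1 (8558), Fosl2 (2427) and Egr2 (385). In FAP it opens with Egr1 (36277), Fos (30186), Jun (27724) and Junb (24505) and ends with Fosl1 (104). In injured FAP the top of the group means is Junb (14066), Fos (13875) and Jun (9853), with Egr1 (6616) down in 5th place. Single libraries can differ: Fos (15413) lies above Junb (13270) in injured FAP replicate 2. Junb (41382) lies above Fosb (38359) in ASC replicate 2.

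Shares within a family do not change when a whole library is multiplied by 1 factor, as in all the scalings but quantile normalization. Of the summed Fos family signal per kb, Fos makes up 23.8%, 44.3% and 38.3% in ASC, 81.4% and 78.9% in FAP and 59.2%, 62.3% and 60.3% in injured FAP. Fosb makes up 55.6%, 46.9% and 51.8% in ASC, 16.0% and 17.9% in FAP and 28.8%, 27.2% and 25.7% in injured FAP, and Fosl1 17.5%, 6.21% and 6.99% in ASC, 0.298% and 0.250% in FAP and 6.86%, 6.10% and 7.87% in injured FAP. The family is thus mostly Fos in FAP, led by Fosb in ASC, and between these in injured FAP, with no overlap for Fos or Fosb.

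Within the Jun family the share of Jun has the same order of groups as that of Fos, and the share of Jund does not. Jun makes up 12.2%, 21.2% and 19.8% in ASC, 37.1% and 37.4% in FAP and 29.2%, 32.1% and 29.7% in injured FAP. Junb makes up 51.7%, 44.5% and 46.4%, then 33.3% and 32.4%, then 43.1%, 42.3% and 44.5%, with ASC and injured FAP meeting at 44.5%. Jund makes up 36.1%, 34.3% and 33.8% in ASC, 29.6% and 30.2% in FAP and 27.6%, 25.6% and 25.8% in injured FAP, which is lowest here. Of the Egr pair, Egr2 is 1.48%, 1.27% and 1.02% in ASC, 1.69% and 1.68% in FAP, and 6.81%, 6.05% and 7.01% in injured FAP, so the fall of Egr1 with injury against a steadier Egr2 also appears as a ratio inside each library of deposited values.

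**Figure D4:**
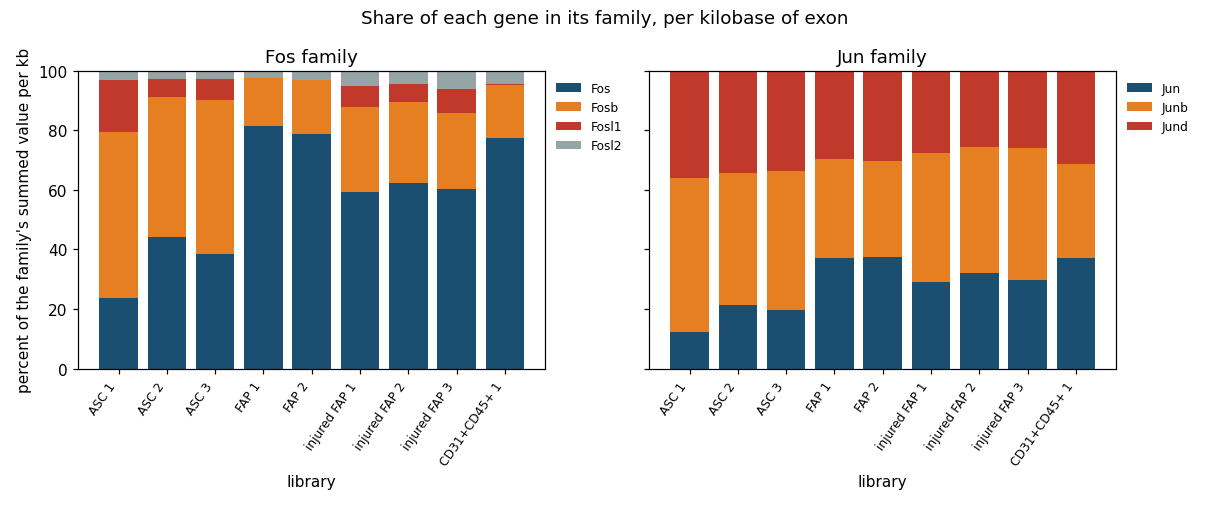
Share of each gene in the summed Fos and Jun families of each library, in percent per kb of exon. Fos makes up 81.4% and 78.9% of its family in FAP and 23.8% to 44.3% in ASC.

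Further gene lists place the members among related genes. Of 13 tested genes of other bZIP factors, 9 were called higher and 2 lower in ASC against FAP (median log2 fold change 1.15, beside 0.00 over all genes, with 0.59 and 7 higher and 3 lower under the common total), 1 higher and 3 lower in injured FAP against FAP (-0.15), and 0 higher and 10 lower in injured FAP against ASC (-1.56, with -0.86 and 1 higher and 8 lower under the common total). Maff, a small Maf protein without a transactivation domain, averages 9199 ± 3202 in ASC, 1521 ± 253 in FAP and 1455 ± 178 in injured FAP, 2.54 (SE 0.25, adjusted p 1.28e-05) in ASC against FAP.

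The list of Egr relatives and corepressors (egr list) has 3 tested genes, Egr3, which encodes a further Egr factor, and Nab1 and Nab2, which encode corepressors that bind Egr proteins. It gave 1 call higher in ASC against FAP (median 0.49, but -0.07 under the common total), none in injured FAP against FAP (median 0.42) and 1 lower in injured FAP against ASC (median -0.07, but 0.08, 0.04 and 0.63 under the other scalings). Under the common total it was 1 higher and 0 lower in injured FAP against FAP and 2 higher and 0 lower in injured FAP against ASC. As deposited the calls are both Egr3, at 2874 ± 404 in ASC, 1075 ± 275 in FAP and 1546 ± 138 in injured FAP. Egr3 is at 1.43 (SE 0.17, adjusted p 4.56e-05) in ASC against FAP and -0.89 (SE 0.15, adjusted p 0.000389) in injured FAP against ASC, the latter -0.19 and not called under the common total. Of 16 genes upstream of the members, among them kinases and serum response cofactors, 6 were called higher and 2 lower in ASC against FAP (median 0.37, but -0.20 with 2 higher and 6 lower under the common total). In injured FAP against FAP 4 upstream genes were higher and 2 lower (median 0.24; 7 higher and 1 lower with the common total, 2 higher and 2 lower with either other scaling), and in injured FAP against ASC 3 were higher and 5 lower (median -0.14). There it was 3 higher and 1 lower with quantile normalization (median 0.06) and a common 75th percentile (median -0.02), and 8 higher and 0 lower with the common total (median 0.56). Relative to all genes that median is -0.16 as deposited and -0.15 with the common total. Elk3, a ternary complex factor that binds beside serum response factor, is among those lower in ASC than in FAP, -2.02 (SE 0.09, adjusted p 1.22e-07).

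Other immediate early genes (ieg list, 34 tested) were mostly higher in ASC and split in both directions with injury. In ASC against FAP 21 were called higher and 3 lower (median 1.13, with 0.55 and 17 higher and 8 lower under quantile normalization, and 0.57 and 17 higher and 7 lower under the common total). With injury, against FAP, 11 were called higher and 10 lower (median 0.03, and -0.06 under a common 75th percentile), and in injured FAP against ASC 1 higher and 23 lower (median -1.18, with 5 higher and 17 lower at -0.55 under quantile normalization and 4 higher and 12 lower at -0.48 under the common total). Ptgs2, which encodes the inducible cyclooxygenase, has 52408 ± 9393 in ASC, 3986 ± 857 in FAP and 31630.3 ± 4862 in injured FAP, 2.99 (SE 0.19, adjusted p 1.01e-06) in injured FAP against FAP, opposite to Fos and Egr1. Nfkbia, the inhibitor of NF-kB and itself its target, also rises with injury, 2.16 (SE 0.16, adjusted p 1.82e-06), whereas Ier2 (-1.94) and Arc (-1.90) fall. Klf4 is high in ASC only, at 160399 ± 20487 beside 24487 ± 2641 in FAP and 17689 ± 2695 in injured FAP.

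Heat shock genes (hsp list, 12 tested) are a further group that digestion can induce. In ASC against FAP 7 were called higher and 3 lower (median 0.60). There it was 1 higher and 4 lower under quantile normalization (median 0.02) and under the common total (median 0.04). A common 75th percentile gave 4 higher and 3 lower (median 0.40). In injured FAP against FAP 4 were higher and 4 lower (median 0.14). In injured FAP against ASC 2 were higher and 3 lower (median -0.35). Under quantile normalization this became 5 higher and 2 lower (median 0.48), and under the common total 4 higher and 1 lower (median 0.34). With a common 75th percentile it was 3 higher and 3 lower (median -0.24). Relative to all genes the median in injured FAP against ASC is -0.38 as deposited and -0.37 with the common total. Hspa1a is at 4263, 13716 and 8528 in ASC, 42226 and 40113 in FAP and 5138, 3949 and 8205 in injured FAP, and Hspa1b follows it. FAP is highest without overlap, while ASC and injured FAP overlap, at -2.38 (SE 0.42, adjusted p 0.000697) in ASC against FAP and -2.90 (SE 0.42, adjusted p 0.000154) in injured FAP against FAP. Hspa1a and Hspa1b are nearly identical copies, so how their reads divide is uncertain. Hspd1, a mitochondrial chaperonin, takes the other direction, 2.40 (SE 0.12, adjusted p 3.04e-07) in injured FAP against FAP.

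Genes reported elsewhere as AP-1 targets (ap1targets list, 14 tested) move differently from Fos. In injured FAP against FAP 12 were called higher and 0 lower (median 3.09), in ASC against FAP 12 higher and 1 lower (median 2.53), and in injured FAP against ASC 6 higher and 5 lower (median 0.53), but there 8 higher and 3 lower under each other scaling, with medians of 1.27 for quantile normalization, 0.65 for a common 75th percentile and 1.23 for the common total. Ccl2, a monocyte chemokine, averages 55838 ± 14554 in ASC, 1022 ± 81.3 in FAP and 36125 ± 4411 in injured FAP, 5.14 (SE 0.20, adjusted p 1.88e-07) in injured FAP against FAP. Il6 and Timp1 rise with it, by 3.84 and 3.94. These genes have other regulators too, and which factor acts on them was not tested. Genes reported as Egr targets (egrtargets list, 7 tested) show no common direction: 1 higher and 3 lower in ASC against FAP (median 0.07, but -0.57, -0.14 and -0.49 under the other scalings), 2 higher and 1 lower in injured FAP against FAP (median -0.01, with 0.12 under the common total), and 3 higher and 3 lower in injured FAP against ASC (median -0.18, but 0.05 under quantile normalization and 0.52 under the common total).

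**Figure D5:**
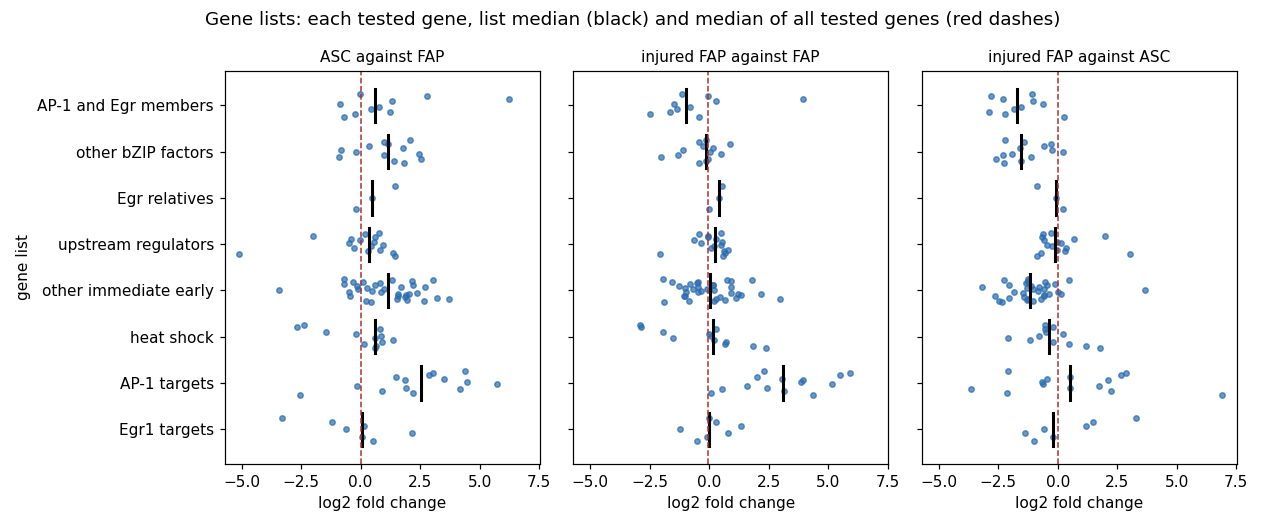
Log2 fold changes of every tested gene of each list in the 3 comparisons, with the median of the list as a bar. The AP-1 target list has a median of 3.09 in injured FAP against FAP.

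Markers of other cells also differ between the groups. The 6 mural markers sum to 1623, 1092 and 1360 in ASC (Notch3 most abundant in each), 21287 and 18931.5 in FAP (Rgs5 and Acta2) and 9849, 9448 and 9829.9 in injured FAP (Cspg4), and all 6 were called lower in ASC against FAP and 5 lower in injured FAP against FAP. The 10 endothelial markers sum to 6584, 5207 and 6976 in ASC, where Tek leads with 4841 to 6700 of it, 6972 and 4723 in FAP, with Emcn, Cldn5 and Vwf at 0 in both FAP libraries, and 1897, 2048 and 1603 in injured FAP, where Cdh5 leads. The 11 leukocyte markers sum to 473, 404 and 382 in ASC, 265 and 497 in FAP, where 8 of 11 are at 0 and Cd68 leads, and 621, 2762 and 545 in injured FAP, where replicate 2 has 725 of Lyz2. Of 7 leukocyte markers tested, 5 were called higher and 0 lower in injured FAP against FAP (median 5.81), 4 higher and 0 lower in ASC against FAP (median 3.80), and 5 higher and 1 lower in injured FAP against ASC (median 2.78). With most of these genes at 0 in FAP, the sizes against FAP are set by the 1 added to each value and are not measured folds. Of 9 endothelial markers tested, 3 were called higher and 5 lower in ASC against FAP and 2 higher and 5 lower in injured FAP against FAP. Against ASC, 5 endothelial markers were higher in injured FAP and 1 lower (median 1.51), although their sum is lower, as Tek makes up most of it in ASC, and 5 mural markers were higher and 0 lower (median 2.52).

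Muscle and stromal markers were read in the same way. The 6 fibre markers sum to 151, 109 and 151 in ASC, 710 and 868 in FAP and 262, 265 and 213 in injured FAP. The 5 satellite cell markers sum to 2805, 2770 and 2659 in ASC, 1326 and 1331 in FAP and 4669, 4429 and 4276 in injured FAP, most of it Vcam1, and Pax7 is at 0 in every ASC library. The 7 stromal markers sum to 2055300, 1611240 and 1932170 in ASC, 1048530 and 1201120 in FAP, and 453406, 469921 and 421248 in injured FAP, led by Col1a1. Among the stromal groups mural and fibre markers are highest in FAP, as Jun and Egr1 are, and their part in the result was not tested.

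The CD31+CD45+ library, without a replicate and so without a test, came from glycerol-injected muscle like injured FAP. It has normalized counts of 50869.7 for Fos, 31542 for Fosb, 119 for Fosl1, 11918 for Fosl2, 80868 for Jun, 50112 for Junb, 35618 for Jund, 18937 for Atf3, 99497 for Egr1 and 2010.4 for Egr2. Relative to the injured FAP mean, Atf3 is 5.09 times as high, Egr1 3.35, Jun 2.57, Jund 2.49, Fos 1.56 and Junb 1.55, while Fosl1 is 26.8 times lower. Most members are thus higher in this library than in injured FAP from muscle with the same injection. No CD31+CD45+ library from NaCl-injected muscle is in the series, so an effect of injury in these cells was not tested.

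Genes outside the lists were ranked by how closely they follow Fos over the 8 libraries, among 10583 genes that average 100 or more. Myorg, a glycosidase gene, comes first with a correlation of 0.985, at 597, 1359 and 1363 in ASC, 986 and 977 in FAP and 362, 374 and 326 in injured FAP, with ASC replicate 1 low as for Fos. Tbx15 (0.981), Dop1a (0.981) and Ctdsp2 (0.980) are also near the top. The ranking is a description without a test.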

How the data were processed

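The values are normalized counts, the signal deposited by the authors, who report fastq_illumina_filter 0.1, FastQC 0.11.9, HISAT2 2.2.1 on mm10, Subread 2.0.1 and DESeq2 1.34.0. The deposited table has 26214 genes, 9 libraries and 2 empty columns. Dividing each value by the value of 1 read in its library gave whole reads for 100% of values in all 9 libraries, within 0.1 reads. Log2(value + 1), which understates changes of low genes, was fitted in R 4.3.3 with limma 3.58.1 (trend) on group means of 8 libraries, 5 residual degrees of freedom, and p-values adjusted by Benjamini-Hochberg across the 13601 genes that average 10 or more. That called 6416 genes in ASC against FAP, 7153 in injured FAP against FAP and 6909 in injured FAP against ASC. On the recovered reads edgeR 4.0.16 called 6450, 7303 and 7000 and DESeq2 1.42.0 called 6412, 7227 and 6865. The scripts were tested on simulated data. Members and the 13 further lists were chosen with earlier results of these data known, and genes were matched by symbol, 4 under newer symbols (Mrtfa, Mrtfb, Ccn1, Ccn2). Listed genes with a mean under 10 were not tested: Batf, Batf3, Egr4, Mmp10, Vwf, Ptprc, S100a8, S100a9, Ly6g, Myf5 and Myh4. Gene positions and exon lengths are from GENCODE M21 and promoters from RefSeq. Some single genes of these lists and rankings are not reported here.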

Additional observations from a re-analysis of the deposited data

Results flagged for a closer look

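In the single CD31+CD45+ library Fosl2 (11918) and Atf3 (18937) lie above both FAP libraries (Fosl2 8848 and 9749, Atf3 12750.5 and 10249.9). They are listed because this library has no replicate and enters no test. It comes from glycerol-injected muscle and FAP from NaCl-injected muscle, so cells, injection and library cannot be told apart. Fosl2 lies within the injured FAP range (10604 to 12339) and Atf3 above it (3219 to 4228).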

How the results depend on the processing

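Of 600 results for single members under other choices, 568 were the same, 27 weaker, 3 stronger and 2 reversed. Those counted as the same include uncalled results whose sign changed. Jund in ASC against FAP (0.45) became -0.30 with quantile normalization and -0.12 with the common total, and Fosb in injured FAP against FAP (-0.04) became 0.39 and 0.09. Both reversed results are Jun in injured FAP against ASC, at 0.47 with quantile normalization and 0.082 with the common total, a scaling chosen after seeing the data. The common total moves all genes, and Jun relative to their median stays at -0.63, against -0.64 as deposited. Members called in injured FAP against ASC moved from 9 to 5 with quantile normalization, and in each of the other 2 comparisons from 7 to 5. With the common total 7 members were called in injured FAP against ASC, 1 higher and 6 lower. With a replicate block 6287, 7046 and 6861 genes and 7, 7 and 8 members (Jun lost in the last) were called in ASC against FAP, injured FAP against FAP and injured FAP against ASC, and replicate numbers do not pair the samples (correlations of same-numbered libraries from -0.05 to 0.04). Leaving out single libraries gave 6 to 7, 7 and 8 to 9 members. FAP has 2 libraries, so its spread rests mostly on the other groups. Isolation, tissue and cell type are confounded between ASC and FAP, and the methods describe triplicates where FAP has 2 libraries. Total RNA per cell is not known, and time from dissection to lysis is not given. The cause of the shifts was not tested.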
